A study of Bos taurus with 6 samples.

Results

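The genes described here were listed as parts of the Wnt, transforming growth factor beta (TGF-beta) and bone morphogenetic protein (BMP) signalling pathways. They are followed through the circular RNAs (circRNAs) read from them in cattle subcutaneous fat. The gene TCF4 entered only under an older symbol, as described below. A circRNA is a covalently closed RNA made when a downstream splice site is joined to an upstream one, and it is counted by reads across that back-splice junction. A list of 30 genes was matched to the gene names of the deposited circRNA annotation. It gave 63 of the 14274 circRNAs, from 19 of the 4790 annotated genes, with 1387 of 237621 junction reads (0.584%). Subcutaneous fat from Qinchuan cattle collected at a slaughterhouse was compared between 3 calves of 6 months and 3 adults of 24 months, with no further treatment or genotype given. The libraries are called calf 1 to 3 and adult 1 to 3. The labels do not say more about where the samples of an age came from, so p-values measure the spread between these samples only.

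Wnt proteins bind Frizzled receptors together with LRP5 or LRP6, which stops the destruction complex of AXIN1 and APC from removing beta-catenin, and beta-catenin then acts with TCF and LEF factors in the nucleus. TGF-beta, activins and BMPs are secreted ligands that assemble type II and type I receptor kinases, and these phosphorylate SMAD proteins that enter the nucleus with SMAD4. In fat, Wnt and TGF-beta signalling are known to restrain the formation of adipocytes, whereas BMP signals can commit precursor cells to that fate.

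One gene name in the deposited annotation needs care. The circRNAs deposited as TCF7L2 carry the identifier ENSBTAG00000016462 and lie on chromosome 24 between circRNA-producing genes CCDC68 and TXNL1. In RefSeq (ARS-UCD2.0) the gene between these neighbours is TCF4, a basic helix-loop-helix factor, which lists TCF7L2 as an older symbol. It is called TCF4 here, and it is not the TCF7L2 that binds beta-catenin. That gene was deposited as TCFL2 (ENSBTAG00000021574, chromosome 26) and had 2 circRNAs with 5 reads, all in calf 2. BMPR1A and BMPR2 were deposited under the older names BMPR-IA and BMPRII, with 1 circRNA of 15 reads and 2 circRNAs of 21 reads. These 5 circRNAs fall outside the name match and are given beside it. Under current names 21 of the 30 genes were read and 9 were not: the Wnt ligand WNT5A, the receptors FZD3, FZD4 and RYK, CTNNB1 (beta-catenin), the nuclear factors LEF1 and TCF7L1, their kinase TNIK, and the SMAD ubiquitin ligase SMURF1. The table holds no count of 1, and its smallest nonzero count is 2, so a gene not read, or a value of 0, stands for fewer than 2 reads per circRNA and library.

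The libraries held 35616 to 47298 junction reads, so that 1 read was worth 21.1 to 28.1 CPM (counts per 1e+06 junction reads of the library). Among fixed marker lists, 8 of 12 adipocyte genes gave circRNAs, at 2579 to 4212 CPM in calves and 2558 to 3347 in adults, while LEP, FABP4, CIDEC and PNPLA2 were at 0. Of 12 immune genes 4 were read (CD5L, ADGRE1, CD163 and ITGAM), at 53.7 to 674 CPM in calves and 3193 to 12034 in adults. PTPRC, MRC1, CSF1R, CD3E, CD247, MS4A1, CD74 and LYZ were at 0. Of 12 skeletal muscle genes 4 were read, with 297 reads in adult 2, 3 in calf 1, 2 in adult 1 and 0 in the rest. Of 9 endothelial genes 7 were read, at 1011 to 1102 CPM in calves and 1265 to 1395 in adults. No epithelial gene of 6 was read, and 1 nerve gene of 6 was, with 4 reads in calf 2. The part of other cell types in the results below was not tested, and in bulk tissue fewer cells of a type and less RNA per cell cannot be told apart.

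Most of the 63 circRNAs had few reads. Of them 24 were read in 1 library (38.1%, against 59.2% of all circRNAs) and 12 in all 6 (19.0%, against 8.35%). Another 27 were read in 2 to 5 libraries, and 36 of the 63 had fewer than 10 reads in total. The 12 read in all 6 held 67.1% of the reads of these genes, against 63.4% for such circRNAs over the whole table. LRP6 gave 11 circRNAs, TCF4 8, TGFBR3 7 and LTBP1 6, while BMP6, SKI, FZD6 and ACVR2B gave 1 each. The median distance between the joined ends was 5038 bases, against 6075.5 over the 12150 circRNAs of 1 gene, and it ranged from 180 to 31270. Both ends fell on the edge of a listed exon or intron in 27 of 63 (42.9%, against 28.5% of all circRNAs of 1 gene), and 39 of 63 shared an end with another circRNA of the same gene. A gene with 1 circRNA cannot share an end, and among genes with 2 or more the share was 66.1%, against 62.5% over all such circRNAs. Edges were collected from the circRNAs of the same gene. Among genes with 2 or more, both ends fell on an edge in 45.8%, against 32.1%. The deposited lists hold no exon or intron shorter than 150 bases. A circRNA listed as intronic can therefore hold short exons: 7 of the 9 intronic ones contain bases that no listed part covers. Positions below are given as the authors' table has them, and the build behind them is not given there or in the labels.

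**Figure D1:**
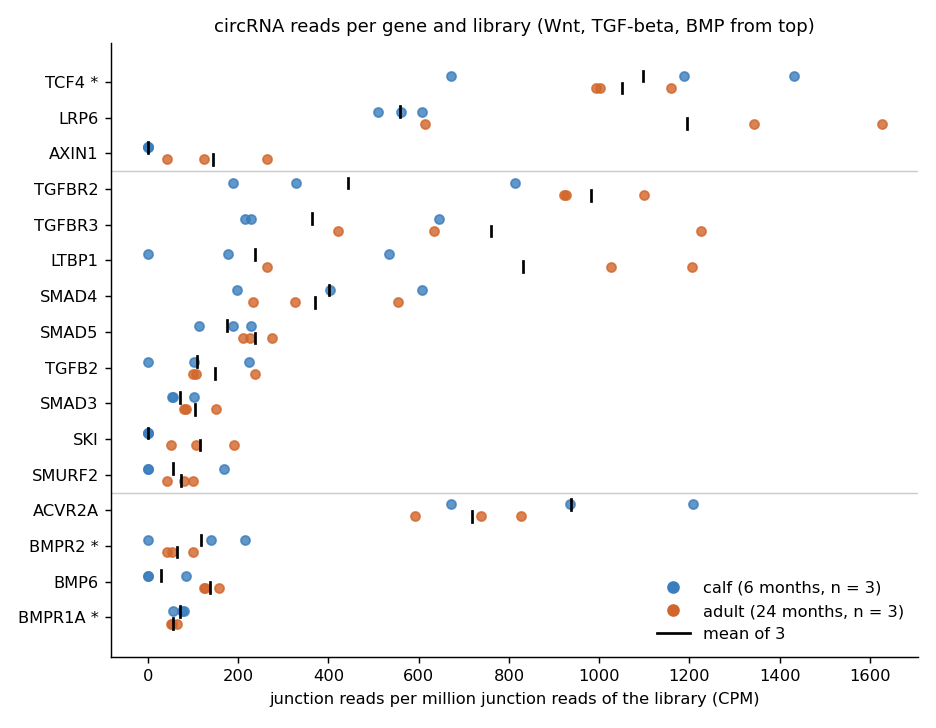
Junction reads in CPM (x axis) of every gene with at least 10 reads, with 1 point per library (blue calves, orange adults, n = 3 each) and a black bar at each mean; grey lines part Wnt, TGF-beta and BMP genes, and an asterisk marks a gene deposited under another name. The 3 adults lie above the 3 calves for LRP6, AXIN1, TGFBR2, SKI and BMP6, and the ages overlap for TCF4, SMAD4 and ACVR2A. Over all tested genes the ages did not overlap in 33.5%. AXIN1, SKI and BMP6 had too few reads for the test.

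Across the whole table, 89 of 719 host genes passed the edgeR quasi-likelihood test between the ages (12.4% at a Benjamini-Hochberg adjusted p under 0.05), 42 higher and 47 lower in adults. Of the 19 genes 7 held enough reads to be tested, and 0 of 7 passed; 4 had an unadjusted p under 0.05, as did 202 of the 719 genes, and DESeq2 also called 0 of the 7. Their log2 changes ran from -0.32 to 1.91 with a median of 1.13, against a median of 0.01 over all tested genes. The genes were selected with results of these data in view, so these medians are a description, and a shift of the genes was not tested. Entry to the test also depends on the counts: LTBP1 and TGFBR3 reached 10 reads in every adult but, among calves, only in calf 3. The ages did not overlap for 2 of the 7, LRP6 and TGFBR2, against 33.5% of tested genes. At the level of single circRNAs, 126 of 663 passed (19.0%) and 1 of the 9 tested ones from these genes did, a circRNA of TCF4. For 3 of the 9 the ages did not overlap, against 39.4% of tested circRNAs. Genes and circRNAs enter these tests only with enough reads, so the counts say nothing about the others. None of the 63 stands among the 81 circRNAs of the authors' deposited comparison tables.

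**Figure D2:**
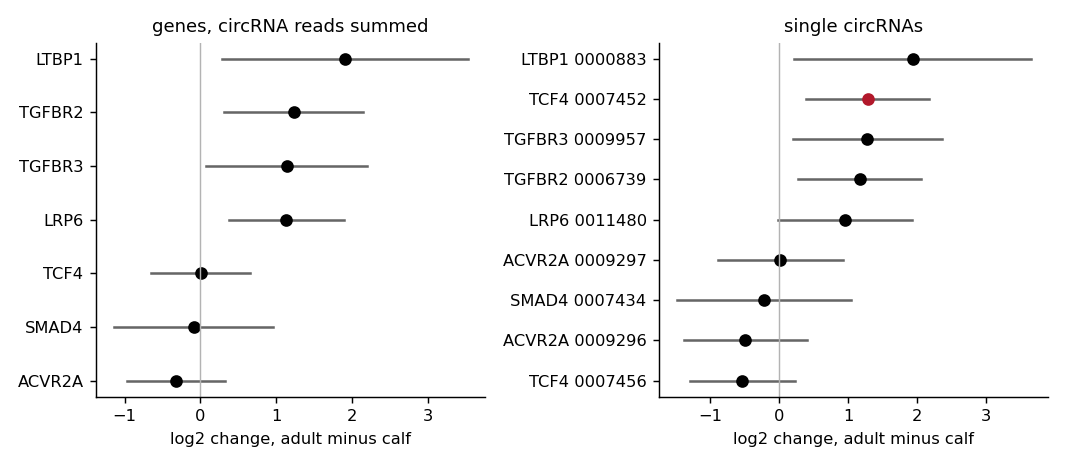
Log2 change from calf to adult (points) with its 95% interval from the edgeR fit (lines) for the 7 tested genes (left) and the 9 tested circRNAs (right, with the last digits of their names). The red point, TCF4 0007452 at 1.28, is the 1 that passed, and the other TCF4 circRNA lies on the other side of 0.

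LRP6 encodes the single-pass co-receptor of Frizzled. Its 11 circRNAs on chromosome 5 had 19, 24 and 20 reads in the calves and 51, 29 and 65 in the adults, in the order of their numbers. In CPM, calves stood at 511, 606 and 562 and adults at 1344, 613 and 1626. All adults were above all calves, but adult 2 exceeded calf 2 only slightly. The log2 change was 1.13 ± 0.35 (SE; 95% interval 0.37 to 1.90) and missed the threshold (edgeR adjusted p = 0.0535). Without adult 2 it was 1.48 and passed (edgeR adjusted p = 0.0166), the only 1 of 14 alternative fits that did. Without adult 3 it was 0.86 (edgeR adjusted p = 0.122).

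The leading circRNA of LRP6, novel_circ_0011480 (98096018 to 98102610, plus strand), held 62.0% of the gene's reads. It was read 11, 19 and 13 times in calves and 28, 15 and 43 times in adults. Adult 2, at 317 CPM, fell among the calves (296 to 480), whereas adults 1 and 3 reached 738 and 1076. Its log2 change of 0.95 ± 0.44 did not pass (edgeR adjusted p = 0.162). Of 13 alternative fits only the 1 without adult 2 passed (1.37, edgeR adjusted p = 0.0471). The other circRNAs of the gene together had 8, 5 and 7 reads in calves and 23, 14 and 22 in adults. Each calf showed 3 LRP6 circRNAs, and the adults showed 6, 4 and 7. The circRNA next in reads, novel_circ_0011482 (98123193 to 98131213), had 6, 3 and 4 reads in calves and 4, 5 and 6 in adults, with overlapping ages. A circRNA that spans 394 bases at 98016630 to 98017024 had 0, 0 and 3 reads in calves and 9, 7 and 3 in adults. The remaining 8 had 2 to 6 reads each. FZD6, a Frizzled receptor, had 1 circRNA with 2 reads in adult 2.

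AXIN1, the scaffold of the beta-catenin destruction complex, was read in adults and not in calves. Its 3 circRNAs on chromosome 25 had 10, 2 and 5 reads in adults 1 to 3 and 0 in every calf. With the calves set to a floor of 3 counts per library, the adult mean was 1.79-fold above that floor. This ratio leaves out the counting error of the adults and the spread between them. Adult 2, at 42.3 CPM, lay below the calf floor of 75.8 to 84.2 CPM. The gene fell under the minimum for the test, and in the fit with no filter on low counts it did not pass (edgeR adjusted p = 0.0984). How often genes of so few reads were read in adults only was not counted.

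TCF4, the basic helix-loop-helix factor deposited as TCF7L2, had the most reads of the 19 genes and nearly the same mean level in both ages. Its 8 circRNAs were read 25, 47 and 51 times in calves and 44, 47 and 40 times in adults, or 1097 ± 388 and 1051 ± 93.8 CPM (SD, n = 3 each). Calf 1 was the lowest library and calf 3 the highest, so the adults lay inside the range of the calves. The log2 change was 0.0047 ± 0.30 (95% interval -0.65 to 0.65; edgeR adjusted p = 0.994).

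Its main circRNAs had changes of opposite sign. Novel_circ_0007452 (55084614 to 55091544, minus strand) was read 6, 9 and 6 times in calves and 20, 20 and 14 times in adults. All adults were above all calves, 433 ± 88.9 against 186 ± 36.3 CPM (SD, n = 3 each), and the log2 change of 1.28 ± 0.41 passed (edgeR adjusted p = 0.0481). No calf reached the minimum count of 10, so this circRNA entered the test through the adults, in which it is higher. The call rests close to the threshold and was lost in 10 of 13 alternative fits. With a mean of at least 10 counts as the filter the edgeR adjusted p was 0.0665, and with the replicate block it was 0.0956. DESeq2 gave 0.234, limma-voom 0.158, and a fit without a filter on low counts 0.417 as adjusted p, and of the 6 fits that left out 1 library only the one without adult 3 passed (0.0430), while the others gave 0.102 to 0.161.

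Novel_circ_0007456 (55101374 to 55115884) is the most read circRNA of TCF4, with 17, 22 and 30 reads in calves and 16, 21 and 13 in adults. In CPM it stood at 457, 556 and 842 in calves and 422, 444 and 325 in adults, so every calf was above every adult by a small margin. Its log2 change of -0.54 ± 0.35 did not pass (edgeR adjusted p = 0.305). These circRNAs do not overlap on the chromosome. Of the reads of the pair, novel_circ_0007452 held 26.1%, 29.0% and 16.7% in calves and 55.6%, 48.8% and 51.9% in adults. The difference of 28.1 percentage points had a two-sided exact permutation p of 0.1, the smallest that 3 against 3 allows. The 4 genes with at least 2 circRNAs read in every library were compared in this way, chosen after the counts had been seen, and the Benjamini-Hochberg adjusted p for TCF4 was 0.4. For LRP6, ACVR2A and SMAD4 the shares of the ages overlapped (exact permutation p = 0.5, 0.4 and 0.9).

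Another 5 TCF4 circRNAs shared an end with 1 or both of them. The circRNA from 55084614 to 55115884, which runs from the outer end of one to the outer end of the other, had 0, 4 and 6 reads in calves and 4, 0 and 11 in adults. That from 55111272 to 55115884 had 2, 9 and 7 reads in calves and 0, 2 and 2 in adults. The third, from 55084614 to 55101507, had 7 reads in all, and the other 2, which start at 55084614 and 55101374, had 2 reads each. The last TCF4 circRNA shares no end and had 2 reads.

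**Figure D3:**
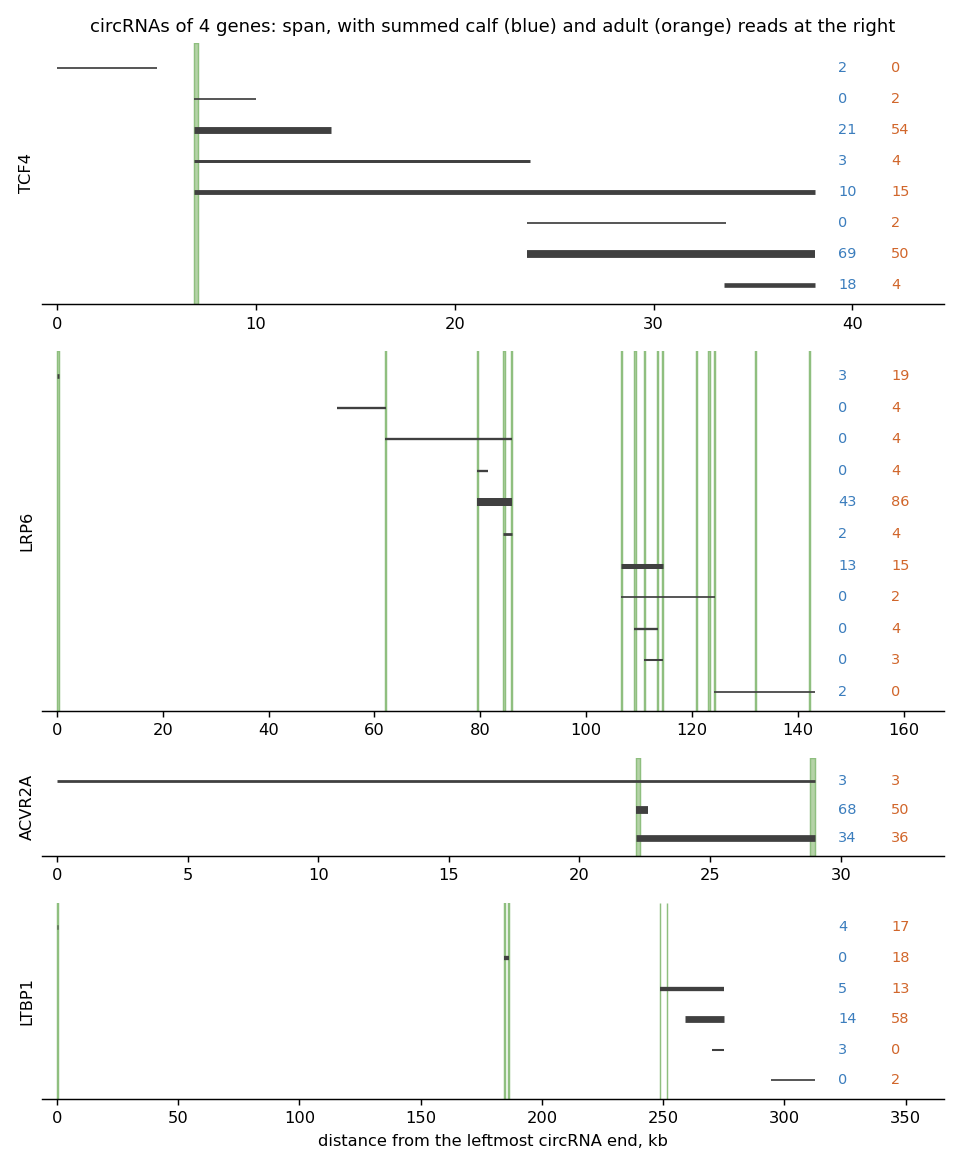
Spans of the circRNAs of TCF4, LRP6, ACVR2A and LTBP1 as distance in kb from the leftmost circRNA end (x axis), 1 line per circRNA, thicker with more reads; green marks are exons of at least 150 bases, and the numbers are summed calf (blue) and adult (orange) reads of 3 libraries each. In TCF4 the heavy circRNAs lie apart, and in ACVR2A they share an end.

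Of the TGF-beta store and receptors, LTBP1, TGFBR2 and TGFBR3 had higher adult than calf means, but none passed the test, and calf 3 had more reads of each than calves 1 and 2. LTBP1 encodes a matrix protein that holds latent TGF-beta. Its 6 circRNAs on chromosome 11 had 0, 7 and 19 reads in calves and 10, 57 and 41 in adults, or 237 ± 272 and 831 ± 500 CPM (SD, n = 3 each). Adult 1 lay below calf 3, so the ages overlapped. The log2 change of 1.91 ± 0.74 (95% interval 0.29 to 3.52) did not pass (edgeR adjusted p = 0.110). Without calf 3 it was 3.23 and passed (edgeR adjusted p = 0.0248), and with no filter on low counts it was 1.90 with an adjusted p of 0.00149. Of 14 alternative fits 3 passed. DESeq2 gave an adjusted p of 0.485 and limma-voom 0.297, and the edgeR fits that left out 1 library gave 0.0248 to 0.332.

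The leading LTBP1 circRNA, novel_circ_0000883 (15803017 to 15818896, plus strand), had 0, 4 and 10 reads in calves and 5, 25 and 28 in adults. Adult 1 again fell within the calf range, and the log2 change of 1.93 ± 0.78 did not pass (edgeR adjusted p = 0.105). It shares its end at 15818896 with 2 other circRNAs of the gene. A circRNA that spans 1880 bases (15728334 to 15730214) was read 5, 7 and 6 times in adults and 0 times in calves. TGFB2, one of the TGF-beta ligands, had 2 circRNAs with 0, 4 and 8 reads in calves and 9, 5 and 4 in adults, and its ages overlapped.

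TGFBR2 is the type II receptor kinase that binds TGF-beta. Its 3 circRNAs on chromosome 22 were read 7, 13 and 29 times in calves and 35, 52 and 37 times in adults. In CPM, calves 1 to 3 had 188, 329 and 814 and the adults 922, 1099 and 926, so that all adults were above all calves. The log2 change of 1.23 ± 0.42 (95% interval 0.31 to 2.14) missed the threshold (edgeR adjusted p = 0.0753). It passed without calf 3 (1.97, edgeR adjusted p = 0.00596) and under limma-voom (1.44, adjusted p = 0.0396), and in all in 3 of 14 alternative fits. DESeq2 gave an adjusted p of 0.108, and the edgeR fits that left out 1 library gave 0.00596 to 0.277. One circRNA, novel_circ_0006739 (5178553 to 5183220, plus strand), held 89.6% of the reads. It had 7, 13 and 26 reads in calves and 32, 43 and 34 in adults. It stood at 416 ± 281 CPM in calves and 868 ± 36.1 in adults (SD, n = 3 each), with no overlap. Its log2 change was 1.16 ± 0.40 (edgeR adjusted p = 0.0649). Of 13 alternative fits 2 passed, without calf 3 (edgeR adjusted p = 0.0161) and under limma-voom (adjusted p = 0.0355). DESeq2 gave an adjusted p of 0.149.

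TGFBR3, or betaglycan, is a co-receptor that presents TGF-beta to TGFBR2. Its 7 circRNAs on chromosome 3 had 8, 9 and 23 reads in calves and 16, 30 and 49 in adults. Calf 3 lay above adults 1 and 2 in CPM, and adult 3 was the highest library at 1226 CPM. The log2 change of 1.14 ± 0.49 (95% interval 0.08 to 2.19) missed the threshold (edgeR adjusted p = 0.144). Without calf 3 it passed (1.82, edgeR adjusted p = 0.0357), and in all it did so in 2 of 14 alternative fits. DESeq2 gave an adjusted p of 0.226, and the edgeR fits that left out 1 library gave 0.0357 to 0.415. Novel_circ_0009957 (51689585 to 51692620, plus strand) held 79.3% of its reads, with 6, 9 and 15 in calves and 12, 24 and 41 in adults. Adult 1 fell within the calf range, and the log2 change of 1.28 ± 0.49 had an edgeR adjusted p of 0.0918. TGFBR1, the type I kinase, had 0, 4 and 3 reads in calves and 0, 0 and 2 in adults. The 3 receptors together stood at 403, 657 and 1544 CPM in calves and 1344, 1734 and 2202 in adults, where calf 3 again lay above adult 1.

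The SMADs, which carry the signal from the receptors to the nucleus, showed no test that passed. SMAD4, the partner shared by the TGF-beta and BMP branches, had 2 circRNAs on chromosome 24 with 15, 24 and 7 reads in calves and 21, 11 and 13 in adults. Both ages spread widely and overlapped, at 402 ± 205 and 370 ± 165 CPM (SD, n = 3 each), and the log2 change of -0.09 ± 0.48 (95% interval -1.14 to 0.96) did not pass (edgeR adjusted p = 0.932). The longer one, novel_circ_0007434 (51013423 to 51033118), had 11, 20 and 4 reads in calves and 14, 7 and 10 in adults (log2 change -0.22 ± 0.57; edgeR adjusted p = 0.823). The shorter, novel_circ_0007433, starts at the same position and had 4, 4 and 3 against 7, 4 and 3 reads.

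SMAD5, a BMP-branch SMAD, had 3 circRNAs that all start at 49183228 on chromosome 7, with 7, 9 and 4 reads in calves and 8, 13 and 9 in adults. One of them, novel_circ_0012374, was read in every library, 3, 4 and 2 times in calves and 6, 3 and 2 times in adults. The circRNA that spans 572 bases had the most reads, 23, of which 10 were in adult 2 and 0 in calf 1. SMAD3, a TGF-beta-branch SMAD, was read through novel_circ_0000093 (13958241 to 13963474, chromosome 10), 2 times in each calf and 3, 4 and 6 times in adults; a second circRNA had 2 reads in calf 2. All 3 adults were above the calves for novel_circ_0000093, at counts too low for the test of single circRNAs. SMAD2, of the same branch, had 2 reads in calf 2 and 6 in adult 2.

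Of the SMAD regulators, SKI, a nuclear repressor of SMAD activity, was read in adults and not in calves, as AXIN1 was. The only circRNA of SKI had 4, 9 and 2 reads in adults against 0 in each calf. The adult mean was 1.44-fold above a calf floor of 3 counts per library, with the same limits as for AXIN1. Adult 3, at 50.0 CPM, lay below that floor. SKI did not pass in the fit with no filter on low counts (edgeR adjusted p = 0.183). SMURF2, a ubiquitin ligase for SMADs and receptors, had 0, 0 and 6 reads in calves and 3, 2 and 4 in adults.

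BMP6, a BMP ligand, had 1 circRNA on chromosome 23 with 0, 0 and 3 reads in calves and 6, 6 and 5 in adults. All adults (125 to 158 CPM) were above calf 3 (84.2), and the reads were too few for the test. In the fit with no filter on low counts it did not pass (edgeR adjusted p = 0.541). ACVR2A, a type II receptor for activins and some BMPs, was the BMP and activin gene with the most reads. Its 3 circRNAs on chromosome 2 had 25, 37 and 43 reads in calves and 28, 28 and 33 in adults, or 938 ± 268 and 719 ± 118 CPM (SD, n = 3 each). The ages overlapped and the log2 change of -0.32 ± 0.29 (95% interval -0.96 to 0.32) did not pass (edgeR adjusted p = 0.520).

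Novel_circ_0009296 (48411975 to 48412431, minus strand) spans 456 bases, of which a listed exon covers 155, and had 16, 22 and 30 reads in calves and 15, 11 and 24 in adults (log2 change -0.49 ± 0.41; edgeR adjusted p = 0.427). Novel_circ_0009297 starts at the same position, ends at 48418830, and had 9, 15 and 10 against 13, 14 and 9 reads (log2 change 0.01 ± 0.41; edgeR adjusted p = 0.985). Both overlapped between the ages. ACVR1, a BMP type I receptor, had 3 circRNAs with 2, 0 and 2 reads in calves and 0, 2 and 3 in adults. ACVR2B, the relative of ACVR2A, had 2 reads in adult 2. BMPR1A, a BMP type I receptor, was read 3, 3 and 2 times in calves and 2, 3 and 2 times in adults, and BMPR2, the BMP type II receptor, 8, 0 and 5 against 2, 2 and 4 times.

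**Figure D4:**
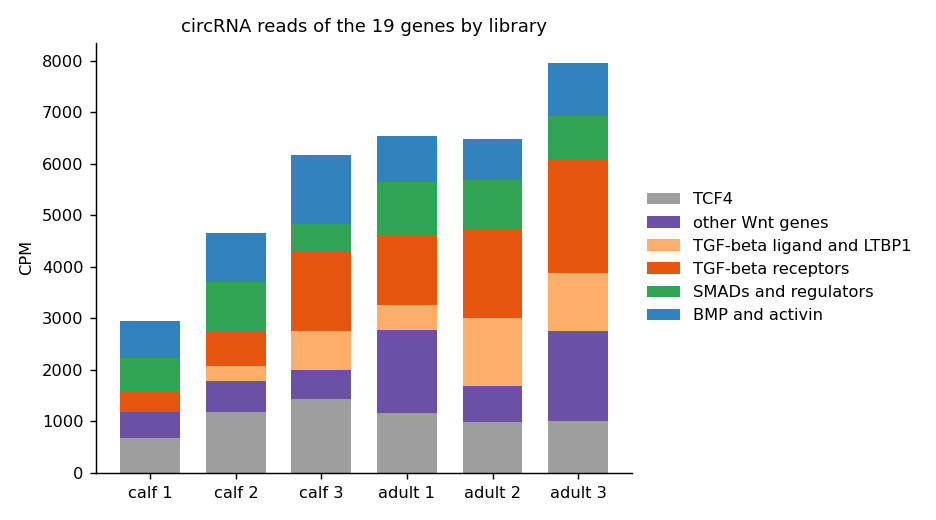
Stacked CPM of the 19 genes in each of the 6 libraries (y axis), coloured by gene group. The summed level is lowest in calf 1 and highest in adult 3, calf 3 has more from the TGF-beta receptors than calves 1 and 2, and TCF4 has nearly the same mean in both ages.

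Summed over all 19 genes, calves had 2956, 4650 and 6177 CPM and adults 6536, 6491 and 7956. The adults were above the calves, with calf 3 close to the lowest adult. By pathway, the TGF-beta and SMAD genes had 1935 ± 894 CPM in calves and 3682 ± 707 in adults, the Wnt genes 1657 ± 423 and 2404 ± 617, and the BMP and activin genes 1003 ± 317 and 908 ± 112 (SD, n = 3 each). Without TCF4 the Wnt sum was 560 ± 48.0 in calves and 1352 ± 571 in adults, where adult 2 had 698 against 511 to 606 in calves. Genes were selected for their function with results of these data in view, and these sums were not tested.

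Other genes of the pathways came from a list of 171, of which 44 were read and 11 were tested. Of the 11, 1 was higher and 2 were lower in adults, against 12.4% called among all genes. LRP5, the other Wnt co-receptor, had 33, 25 and 20 reads in calves and 95, 129 and 45 in adults, and rose by 1.68 ± 0.36 on the log2 scale (edgeR adjusted p = 0.0076, 0.0582 without calf 2). APC, which works with AXIN1 in removing beta-catenin, had 27, 37 and 33 reads in calves and 3, 3 and 9 in adults and fell by 2.75 ± 0.45 (edgeR adjusted p = 0.00248). ZEB1, a repressor that acts with SMADs, had 387, 419 and 420 reads in calves and 155, 217 and 217 in adults and fell by 1.15 ± 0.21 (edgeR adjusted p = 0.00392). The ages did not overlap for any of the 3.

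The annotation table also gives reads headed non-junction for each circRNA and library. How they were counted is not given, and an RNase R step that digests linear RNA is described without saying whether these libraries went through it, so they are no direct measure of the linear transcript. Of the circRNAs read in all 6 libraries, the 12 of these genes and that of BMPR1A had between 0.526 and 337 junction reads per 100 non-junction reads, while the median over all 1192 such circRNAs, leaving out 69 without non-junction reads, was 7.07. SMAD5, SMAD4, BMPR1A and the less read LRP6 circRNA stood lowest, at 0.526 to 1.05. The short ACVR2A circRNA stood far above, with 118 junction reads against 35 non-junction reads, or 337 per 100, and 97.9% of the circRNAs with such a ratio lay below it. Its neighbour from the same start, which spans 6855 bases, had 70 junction and 752 non-junction reads, or 9.31 per 100. The other 12 span 3035 bases or more; the part of span in the ratio was not tested.

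Between ages, junction reads relative to non-junction reads were tested with limma in 1070 circRNAs, of which 1 passed (0.0935%). Of the 11 from these genes 0 passed, and 1 had an unadjusted p under 0.05, as did 148 overall. TGFBR3 novel_circ_0009957 had the largest log2 change, 1.22 ± 0.48, with a limma adjusted p of 0.254. Its ratio was 1.35, 2.59 and 4.42 per 100 in calves and 8.05, 5.02 and 6.55 in adults, so the adults were above the calves. The TCF4 pair had opposite signs, 0.88 ± 0.48 for novel_circ_0007452 and -0.75 ± 0.50 for novel_circ_0007456, and neither passed (limma adjusted p = 0.458 and 0.578). These ratios hold the same junction reads as the count tests, so the signs are no separate evidence. For TGFBR2 novel_circ_0006739 it was 0.51 ± 0.50 (limma adjusted p = 0.710).

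**Figure D5:**
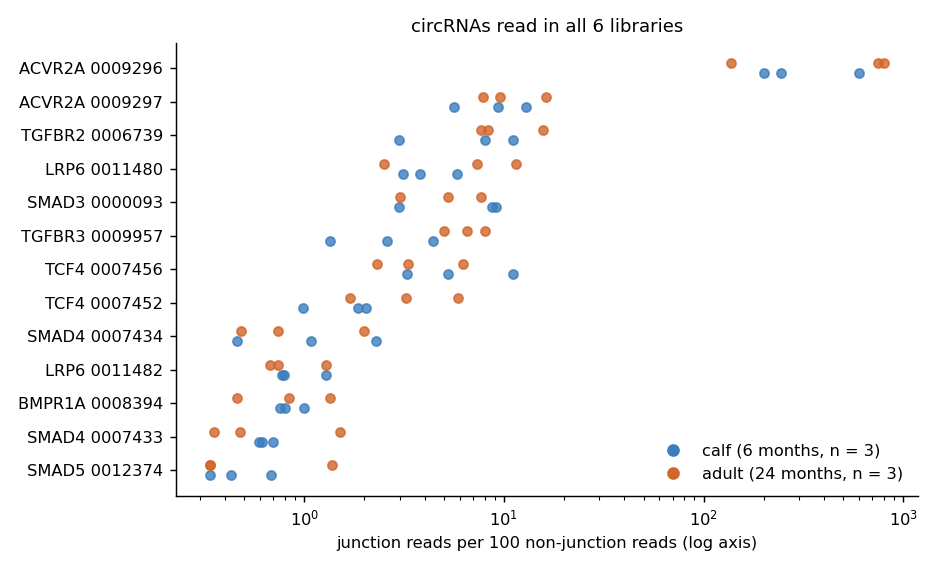
Junction reads per 100 non-junction reads (log x axis) for the 13 circRNAs read in all 6 libraries, 1 point per library (blue calves, orange adults). The short ACVR2A circRNA 0009296 lies above 100 in every library, and the others lie below 20.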

How the data were processed

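Reads were junction counts per circRNA in 6 libraries (35616 to 47298 per library), deposited by the authors and not normalized, per the file headers; 0 columns were left unassigned. The deposited comparison tables hold log2 fold changes and adjusted p-values per the file headers; no member circRNA is in them. The annotation table, deposited by the authors, gives position, gene, class, lengths and non-junction reads. Trim Galore, Cufflinks, TopHat and TopHat2 2.0.14 stand in the submitters' processing notes, which have no circRNA caller or build here. The labels describe ribosomal depletion and strand-marked cDNA.

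Counts were tested in R 4.3.3 by edgeR 4.0.16 quasi-likelihood F tests (TMM, filterByExpr with a minimum count of 10, Benjamini-Hochberg, threshold 0.05, adult minus calf), on single circRNAs and on reads summed per gene over circRNAs of that gene alone. Ratios were tested with limma 3.58.1 on log2 values with a pseudocount of 0.5, in circRNAs read in every library and averaging 10 or more non-junction reads, each library centred on its median. Scripts were tested on simulated data. Alternatives were DESeq2 1.42.0, limma-voom, other scalings and filters, a replicate block and each library left out. Floors cover the counting error of the calves only. The 95% intervals come from the edgeR quasi-likelihood fits and include the fitted spread between libraries. Standard errors of edgeR changes were derived from the F statistic, and those of ratios from the limma t statistic. Older symbols were read with RefSeq of ARS-UCD2.0. The genes and lists were chosen with earlier results of these data known. All genes of the list are named, and values per library are given for members in a test or in every library.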

Additional observations from a re-analysis of the deposited data

How the results depend on the processing

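The counts of calls moved with the setting. For circRNAs, 126 passed, 202 without a filter, 56 with the replicate block, and 71 to 138 with 1 library left out. For genes, 89 passed, 101 with the replicate block and 55 to 123 with 1 library left out. For the ratio, 1 passed, 2 with a pseudocount of 1, 0 without centring, 0 with the replicate block and 0 to 35 with 1 library left out (35 without calf 3). Among the circRNAs of these genes, 1 passed, and 0 with DESeq2, no filter, a mean of at least 10 counts or the replicate block, and 0 to 1 with 1 library left out. Among the genes, 0 passed, 1 with limma-voom (TGFBR2), 1 with no filter (LTBP1), 3 with the replicate block, and 0 to 3 with 1 library left out.

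The replicate numbers gave no sign of pairing the libraries. Same-numbered calves and adults correlated by 0.0028, -6.2e-05 and 0.014 over 1192 circRNAs, and other-numbered ones by -0.010 to 0.0082. These values bear only on the numbering and not on how alike the circRNA levels of the ages were. With the replicate block TGFBR2 had an edgeR adjusted p of 0.0384, LTBP1 0.0107 and TGFBR3 0.0396.

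Of 28 changes of single members, 19 kept their sign throughout. Changes near 0 switched sign. TCF4 had -0.0084 with total counts, -0.0069 without a filter, -0.013 with a mean of at least 10 counts, -0.0083 with circRNAs of several genes added, and -0.29 to 0.23 with 1 library left out. ACVR2A novel_circ_0009297 had -0.0046, -0.011 and -0.020 under the first 3, and -0.14 to 0.21. SMAD4 had -0.46 to 0.32, and its circRNA novel_circ_0007434 -0.62 to 0.35. For ratios, the ranges with 1 library left out were -0.28 to 0.15 for BMPR1A, -0.47 to 0.18 for LRP6 novel_circ_0011482, -0.47 to 0.17 and -1.02 to 0.14 for SMAD4 novel_circ_0007433 and novel_circ_0007434, and -0.28 to 0.34 for SMAD5. The cause was not tested. At this depth 7 of the 19 genes held enough reads for the test.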
